A study of Mus musculus with 6 samples.

Results

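The odorant and pheromone receptor genes of the mouse form some of the largest gene families of the genome and act chiefly in the sensory neurons of the nose. The genes described here were the RefSeq protein-coding genes on chromosomes 1 to 19 whose symbols start with Olfr, Vmn1r or Vmn2r, each taken with 2 kb either side. There were 1458 of them among 20665 protein-coding genes (7.06%): 1104 Olfr genes, 231 Vmn1r genes and 123 Vmn2r genes. Adding chromosomes X and Y would bring the number to 1465. Over them lay 6 peak lists made by CUT&RUN, an assay in which a nuclease tethered by an antibody releases the DNA around a marked nucleosome. The tissue was the gastrocnemius, a calf muscle, of 4-week-old male C57BL/6 mice. Conditional knockout mice (CKO) carried floxed Phf2 alleles and Cre driven by Acta1, the skeletal muscle actin gene, and control mice (Ctrl) carried the same Phf2 flox/flox alleles without Cre. The lists were H3K4me3 in Ctrl, H3K9me2 in CKO and in Ctrl, input in CKO and 2 inputs in Ctrl. The study asked what PHF2, described as a demethylase of H3K9me2, does in skeletal muscle.

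This Cre acts in muscle fibres, while the tissue also holds other cells that keep PHF2, and a peak list does not tell cell types apart. H3K9me2 had 1 library per genotype and H3K4me3 was mapped in Ctrl alone, so no difference between CKO and Ctrl was tested, and the intervals given below are 95% intervals that cover counting error alone. The folds are the authors' own, a peak's summit over its local background. The targeted gene, Phf2, had 1 H3K4me3 peak in Ctrl (fold 7.81) and no peak in the other 5 lists, which does not check the deletion. Of 6 muscle marker genes, Des, Mb and Tnnt3 had an H3K4me3 peak, and Acta1, Ckm and Myh4 had none. On chromosomes 1 to 19 the lists held 16066 H3K4me3 peaks, 12508 CKO and 3595 Ctrl H3K9me2 peaks, 10683 CKO input peaks, and 2999 and 1277 Ctrl input peaks. The CKO list was therefore 3.48 times as long as the Ctrl list for H3K9me2, and 3.56 and 8.37 times as long as the Ctrl lists for input. The summits rested on a median of 53 fragments for H3K4me3 and of 6 to 9 in the other lists, so most H3K9me2 peaks rest on few fragments. The background coverage of a library, in fragments per position, was taken as the lowest local background solved from the fold and p-value of its peaks. It was 0.482 for H3K4me3, and 0.544 and 0.391 for H3K9me2 in CKO and Ctrl. For input it was 0.371 in CKO, and 0.294 and 0.292 in Ctrl.

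Olfr genes encode odorant receptors, G protein-coupled receptors of the sensory neurons of the nose. Vmn1r and Vmn2r genes encode the pheromone receptors of the vomeronasal organ, and Vmn2r proteins have a long extracellular domain encoded by several exons. The genes stand in dense arrays formed by repeated duplication, and each sensory neuron expresses an allele of very few of them while the remainder are packed in heterochromatin that carries methylated H3K9. In other tissues the arrays are mostly silent, apart from a few receptors described outside the nose. Because many of the genes are near-identical copies, reads that align to several of them can be lost or misplaced. The sources used here do not say how such reads were treated, and their part in the counts below was not tested.

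Most of the genes are short. Their median length was 951 bp, against 19555 bp for the other protein-coding genes, with medians of 950 bp for Olfr, 924 bp for Vmn1r and 24544 bp for Vmn2r genes. The length was a multiple of 3 for 76.3% of the receptor genes and for 33.7% of the others. For many of them the gene model thus spans the coding sequence without untranslated exons, and its start need not be the start of transcription. By the MOR family number among their synonyms, 125 Olfr genes were class I, the class shared with fish, 955 were class II and 24 carried no such number. The genes fell into 76 clusters, taken as runs with no gap above 500 kb, of which 18 held a single gene and 45 held 5 or more. Chromosome 12 carried none of them and chromosome 7 carried 417. With their flanks the genes covered 11.49 Mb, and the clusters, from first to last gene, spanned 56.05 Mb. Symbols with the ending -ps, used for pseudogenes, were carried by 5 genes listed as protein coding. A further 4, namely Vmn2r122, Vmn1r186, Vmn1r187 and Olfr100, are listed below position 3000000 of their chromosomes, where no list has a peak, so no peak could be counted for them.

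The sequence at the start of a gene differed between receptor genes and other genes. In windows of 250 bases before to 50 after the starts that the promoter table lists (RefSeq, GRCm38.p6), 1260 receptor genes had 1265 windows. Of these 1201 lay at the outer 5′ end of the gene model and 64 elsewhere in the gene. Their median GC content was 35.7% and their median number of CpG sites was 1, against 57.7% and 15 in 18820 windows of other genes. No CpG was found in 31.1% of the receptor windows, against 2.60% of the other windows. At least 10 CpG sites were found in 3 receptor windows (0.237%), those of Vmn2r29, Olfr212 and Olfr750, against 61.8% of the other windows. A peak of any list lay on 5 of these windows. At the outer 5′ end of the gene model, a window of the same length had a peak in 6 genes, with Vmn1r4 and Olfr316 in and Olfr1349 out. The 4 windows printed here carry the contrast: that of Vmn2r29 lay under a peak of each of the 6 lists, that of Olfr976 under H3K9me2 peaks of both genotypes, that of Olfr373 under an H3K9me2 peak in CKO, and that of Olfr16 under none. Capitals mark CpG sites.
Vmn2r29, chr7:7278240-7278539, minus strand: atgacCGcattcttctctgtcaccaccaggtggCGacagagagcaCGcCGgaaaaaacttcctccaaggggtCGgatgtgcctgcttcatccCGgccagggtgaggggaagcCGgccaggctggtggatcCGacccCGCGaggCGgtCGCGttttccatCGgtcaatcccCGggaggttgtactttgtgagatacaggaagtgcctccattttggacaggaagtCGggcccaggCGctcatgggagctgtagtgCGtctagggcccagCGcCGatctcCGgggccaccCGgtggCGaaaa
Olfr976, chr9:39960995-39961294, minus strand: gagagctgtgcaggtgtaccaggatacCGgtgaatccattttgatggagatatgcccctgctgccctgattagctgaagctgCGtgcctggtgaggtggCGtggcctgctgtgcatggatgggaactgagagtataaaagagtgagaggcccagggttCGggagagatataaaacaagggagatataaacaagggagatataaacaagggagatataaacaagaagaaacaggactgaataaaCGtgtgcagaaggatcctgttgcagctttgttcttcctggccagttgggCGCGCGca
Olfr373, chr8:72099512-72099811, plus strand: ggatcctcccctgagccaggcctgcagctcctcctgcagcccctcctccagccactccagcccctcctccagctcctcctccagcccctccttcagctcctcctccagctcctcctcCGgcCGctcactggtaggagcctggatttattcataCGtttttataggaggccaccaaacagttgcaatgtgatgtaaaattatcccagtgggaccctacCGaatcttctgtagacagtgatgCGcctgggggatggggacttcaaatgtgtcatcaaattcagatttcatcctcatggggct
Olfr16, chr1:172956518-172956817, plus strand: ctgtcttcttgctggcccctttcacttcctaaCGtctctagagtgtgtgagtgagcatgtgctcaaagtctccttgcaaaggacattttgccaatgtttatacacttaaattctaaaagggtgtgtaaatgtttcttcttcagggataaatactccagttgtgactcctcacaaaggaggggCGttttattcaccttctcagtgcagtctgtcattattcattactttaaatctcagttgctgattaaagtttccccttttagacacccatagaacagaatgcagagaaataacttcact

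The Vmn2r29 window held 23 CpG sites at 62.3% GC, the highest CpG count of any receptor window. The Olfr976 window held 8 CpG sites, the Olfr373 window 5 and the Olfr16 window 2. The other windows under a peak, both H3K9me2 in CKO, were those of Olfr1349 with 6 CpG sites and of Olfr536 with none. Part of the Olfr976 window repeats: a stretch of 37 bases occurs there more than once, and in the Olfr373 window a stretch of 20 bases does. Such a repeat of 20 bases or more was found in 1.42% of the receptor windows and in 2.26% of the other windows. The longest repeats in the windows of Vmn2r29 and Olfr16 were 9 and 8 bases.

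**Figure D1:**
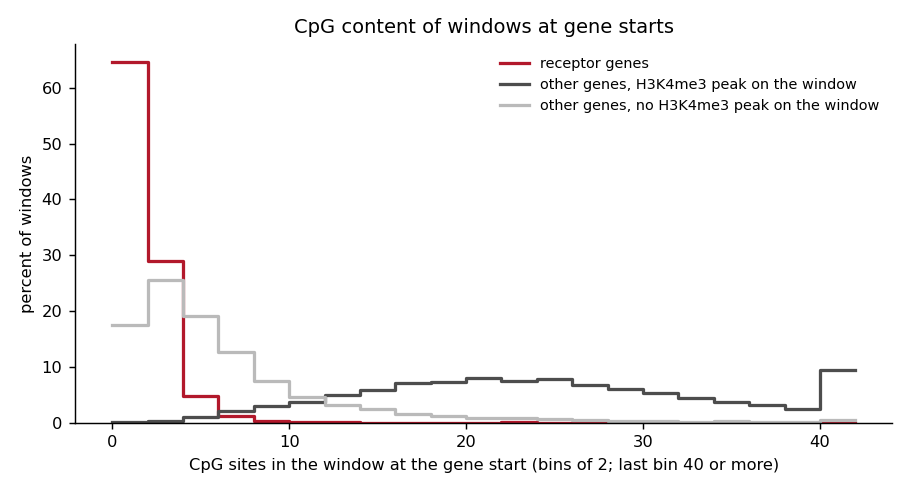
Number of CpG sites (horizontal axis, bins of 2) in the window from 250 bases before to 50 after the gene start, as percent of windows (vertical axis), for receptor genes in red, other genes with an H3K4me3 peak on the window in dark grey and other genes without one in light grey. The receptor windows pile up at the lowest counts, with a median of 1, while the medians of the other genes are 23 with H3K4me3 and 4 without.

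Letters known from receptor promoters were counted in the same windows on both strands. CCCNNGGG, a core recognised by Olf/EBF factors and its own reverse complement, was present in 4.19% of the receptor windows, against 16.0% of all windows. Its share was 3.08% for Olfr, 0.485% for Vmn1r and 19.7% for Vmn2r genes. TAATTA, a homeodomain core that is also its own reverse complement, was present in 16.7% of the receptor windows, against 4.48% of all windows, with 18.7% for Olfr, 7.28% for Vmn1r and 17.1% for Vmn2r genes. The 2 sets of letters do not overlap. Many receptor gene models span the coding sequence alone, so a window at their start need not hold the promoter. The shares therefore describe the windows and do not show which letters the promoters carry. The receptor windows are also poor in G and C, and the part of base composition in these counts was not tested.

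H3K4me3, the mark of active promoters, was close to absent from receptor genes in Ctrl muscle. A peak overlapped 5 of 1458 receptor genes with their flanks (0.343%, exact interval 0.111 to 0.798), where 65.5% of all protein-coding genes had one. The 5 were 2 of 1104 Olfr, 1 of 231 Vmn1r and 2 of 123 Vmn2r genes, and none was among the 125 class I genes (exact upper limit 2.91%). On the windows at listed starts a peak lay in 1 of 1265 (0.0791%), against 58.2% of the windows of other genes, and at the outer 5′ ends of the gene models in 2, Vmn1r4 and Vmn2r29. Short genes give a peak less room, so genes of up to 1500 bp were compared in a length class chosen after the values were seen. In it 1 of 1144 receptor genes (0.0874%, 0.00221 to 0.486) and 217 of 785 other genes (27.6%, 24.5 to 30.9) had an H3K4me3 peak. Per Mb, receptor regions held 0.435 H3K4me3 peaks (0.141 to 1.02), other protein-coding genes 13.7 and intergenic sequence 1.34. The ratio to intergenic sequence was 0.324 (0.105 to 0.757).

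**Figure D2:**
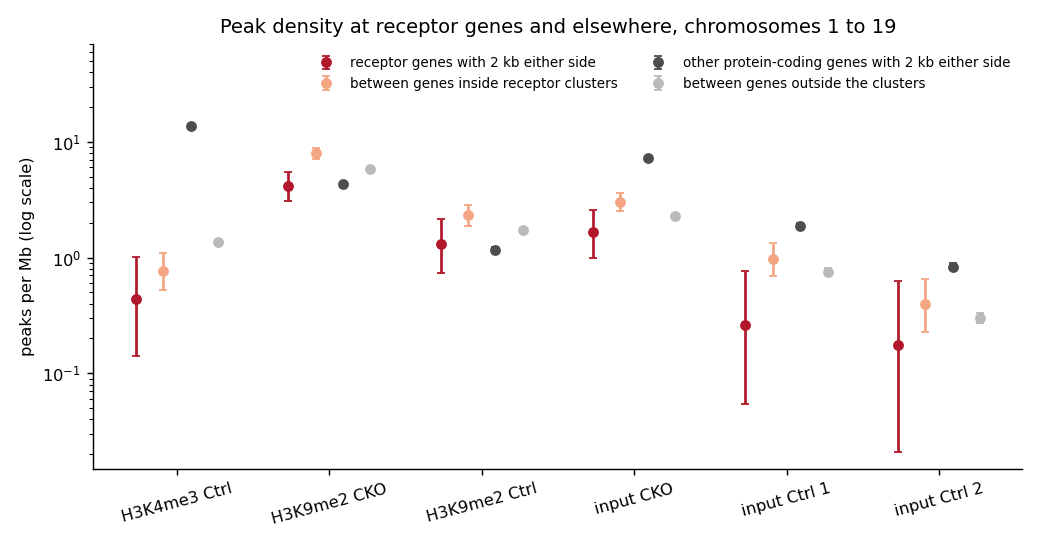
Peaks per Mb (log scale) in the 6 lists, for receptor genes with 2 kb either side (red), sequence between genes inside receptor clusters (orange), other protein-coding genes with 2 kb either side (dark grey) and sequence between genes elsewhere (light grey), with exact 95% Poisson intervals. For H3K4me3 the receptor genes are lowest at 0.435 and the other genes highest at 13.7, and for both H3K9me2 lists the sequence between genes inside the clusters is highest, at 7.96 in CKO and 2.34 in Ctrl.

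Of the 5 H3K4me3 peaks at receptor genes, that of Vmn2r29 lay on a listed start and that of Vmn1r4 on the outer end of the gene model. The highest, at Vmn2r29 (chr7:7277648-7278346, fold 16.2), lay at the start of that gene. That at Vmn1r4 (chr6:56923444-56924278, fold 16.0, 125 summit fragments) overlapped the first bases of the gene model and lay within 2 kb of Nt5c3, a nucleotidase gene. That at Olfr94 (chr17:37197022-37197656, fold 9.02) lay in the gene and within 2 kb of Ubd, which encodes a ubiquitin-like protein. That at Vmn2r87 (chr10:130470268-130470811, fold 10.6) lay 1010 bp downstream of the gene on the pseudogene Gm18755. The lowest, at Olfr1033 (chr2:86020326-86020703, fold 5.90), lay across an end of its gene with 10 summit fragments. Each of the 5 overlapped a CKO input peak, against 33.5% of all H3K4me3 peaks. Those input peaks had folds of 18.3 at Vmn2r29, 7.52 at Olfr1033, 6.47 at Vmn1r4, 4.93 at Vmn2r87 and 4.36 at Olfr94, and their part in the H3K4me3 peaks was not tested.

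Vmn2r29 was the single receptor gene found in each of the 6 lists. It is a pheromone receptor gene of chromosome 7, at the head of a cluster of 17 receptor genes. At its start the peaks had folds of 16.2 for H3K4me3, 17.2 and 12.4 for H3K9me2 in CKO and Ctrl, 18.3 for the CKO input, and 19.2 and 13.8 for the Ctrl inputs. The summits rested on 80 fragments for H3K4me3, 59 and 33 for H3K9me2 in CKO and Ctrl, 108 for the CKO input, and 71 and 36 for the Ctrl inputs. The peak was thus present with and without an antibody to a histone mark, and the value of either H3K9me2 list was below that of the CKO input. Further into the gene, CKO H3K9me2 had a second peak (fold 5.13) that overlapped a CKO input peak (6.09), and the CKO input had one more alone (5.58).

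**Figure D3:**
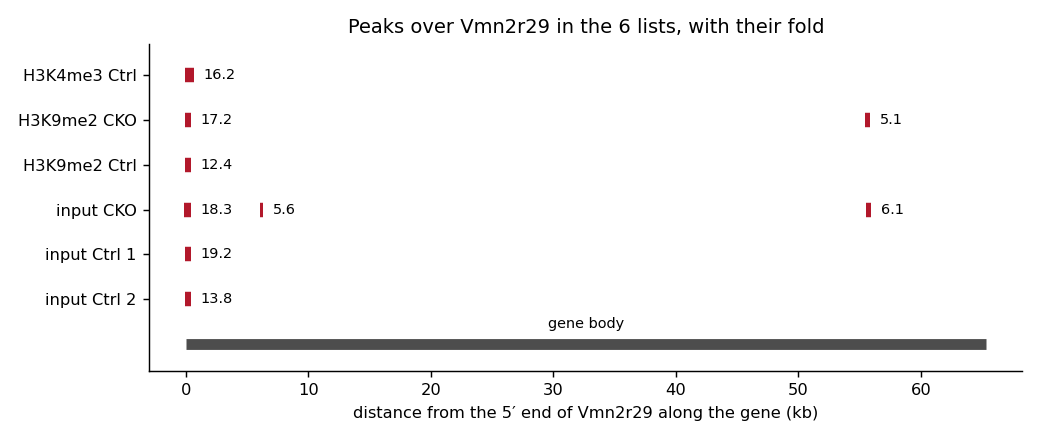
Peaks over Vmn2r29 in the 6 lists, drawn as red bars by distance from the 5′ end along the gene (kb, horizontal axis), with the fold printed beside each and the gene body in grey. Each list has a peak at the 5′ end with a fold between 12.4 and 19.2, and the CKO lists have further, lower peaks.

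Peaks of H3K9me2, a mark of silent chromatin, were called at few receptor genes in either genotype. The lists held narrow peaks, with median widths of 389 bp in CKO and 387 bp in Ctrl, scored over their local background. Signal spread evenly over a wider region was not measured. In CKO 48 receptor genes had a peak (3.29%, 2.44 to 4.34), where 16.0% of all protein-coding genes had one. In Ctrl 15 did (1.03%, 0.577 to 1.69), where 5.38% of all genes did. The CKO count was higher, as was the whole CKO list, and both counts lay below their backgrounds. With every list cut to its 1277 strongest peaks, the count was 4 genes in CKO and 4 in Ctrl. The share of all protein-coding genes at that list length was not counted. After removal of peaks that overlap an input peak, 41 CKO genes (2.81%, background 9.82%) and 14 Ctrl genes (0.96%, background 3.26%) remained. Among genes of up to 1500 bp, the class that holds most receptor genes, 23 of 1144 receptor genes had a CKO peak (2.01%, 1.28 to 3.0) against 6.75% of 785 other genes (5.1 to 8.74), and 1.75% against 4.59% after removal of input peaks. In Ctrl the shares were 0.437% (0.142 to 1.02) against 1.91% (1.07 to 3.13). With input peaks removed, the Ctrl shares were 0.437% (0.142 to 1.02) against 1.4% (0.702 to 2.49), and these intervals overlapped. The intervals overlapped in CKO for genes over 1500 to 10000 bp, at 5.11% (2.36 to 9.49) against 7.9% (7.19 to 8.67), and over 10000 to 50000 bp, at 10.7% (5.97 to 17.3) against 13.0% (12.3 to 13.8). After removal of input peaks, the shares in these longer classes were 5.11% against 4.26% and 8.4% against 6.4% in CKO. In Ctrl they were then 2.27% against 0.783% and 3.05% against 1.84%, and the intervals overlapped in each case. Per Mb over all receptor regions, whatever the gene length, the values lay near those of other genes. Receptor regions held 4.18 CKO peaks (3.08 to 5.54) against 4.33 for other protein-coding genes (ratio 0.966, 0.711 to 1.28) and 5.88 for intergenic sequence (0.71, 0.523 to 0.943). In Ctrl they held 1.31 (0.731 to 2.15) against 1.17 for other genes (1.12, 0.624 to 1.85) and 1.75 for intergenic sequence (0.747, 0.417 to 1.23). After removal of input peaks, receptor regions held 3.57 per Mb against 2.87 for other genes in CKO (ratio 1.24, 0.891 to 1.69). In Ctrl they then held 1.22 against 0.727 (1.68, 0.912 to 2.83).

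By family, the CKO H3K9me2 peaks fell on 32 of 1104 Olfr genes (2.90%), 1 of 231 Vmn1r genes (0.433%, 0.011 to 2.39) and 15 of 123 Vmn2r genes (12.2%, 6.99 to 19.3). In Ctrl they fell on 9 Olfr genes (0.815%), no Vmn1r gene (upper limit 1.58%) and 6 Vmn2r genes (4.88%, 1.81 to 10.3). The Vmn2r genes are the long ones, and per Mb the families were closer: 4.47 in Olfr, 0.767 in Vmn1r and 4.87 in Vmn2r regions for CKO, and 1.39, 0 and 1.62 for Ctrl. The interval of the Vmn1r density in CKO, 0.0194 to 4.27, reached nearly to the values of the other families. The single Vmn1r gene was Vmn1r56. Class I Olfr genes had 2 of 125 in CKO (Olfr571 and Olfr684) and 1 of 125 in Ctrl (Olfr571), against 30 and 8 of 955 class II genes, and the intervals of the classes overlapped.

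The highest CKO H3K9me2 peak at a receptor gene after that of Vmn2r29 was at Olfr819, an odorant receptor gene of chromosome 10. It lay 1674 bp upstream (chr10:129968372-129968974, fold 9.62, 23 fragments) and in no other list. Next came Vmn2r53 (8.89), whose peak lay in the gene on the pseudogene Gm15773 and in the CKO input too (7.27), and Vmn2r87 (8.37), on the same pseudogene as its H3K4me3 and input peaks. The following genes had a peak in CKO H3K9me2 alone: Olfr27 at 7.77, Olfr414 at 7.66, Vmn2r86 at 7.15, Olfr951 at 6.96, Olfr982 at 6.95 and Olfr180 at 6.90. The peak of Vmn2r86 lay 1101 bp downstream, on the pseudogene Gm18754. Those of Olfr27, Olfr414 and Olfr982 overlapped the gene itself. In Ctrl, after Vmn2r29, the highest were Vmn2r26 at 6.65, Olfr1280 at 6.50 and Olfr976 at 6.17, followed by Vmn2r69, Olfr1178 and Vmn2r22 at 5.03 each, Olfr828 at 4.50, and Olfr703 and Olfr1419 at 4.31 each. From Vmn2r69 down these Ctrl peaks rested on 5 or 6 fragments.

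The H3K9me2 peaks at receptor genes had median values close to those of their lists. The 51 CKO H3K9me2 peaks had median values of 5.83 for fold and 9 for summit fragments, against 5.42 and 9 over the whole list. The 15 Ctrl peaks had 4.50 and 6, against 4.91 and 6. At q of 1e-05 or less there were 24 of the 51 CKO peaks (47.1%, against 39.4% of the list) and 2 of the 15 Ctrl peaks (13.3%, against 10.7%). The 5 H3K4me3 peaks had a median of 20 summit fragments, against 53 over the list, and a median fold of 10.6, against 10 over the list. The 20 CKO input peaks had a median fold of 6.06, against 5.11 over the list, and 8 of the 20 had a q of 1e-05 or less, against 17.6% of the list. Of the 51 CKO H3K9me2 peaks 30 overlapped the gene, 4 lay upstream, 10 downstream and 7 in a flank of a gene whose strand is not in the tables used.

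**Figure D4:**
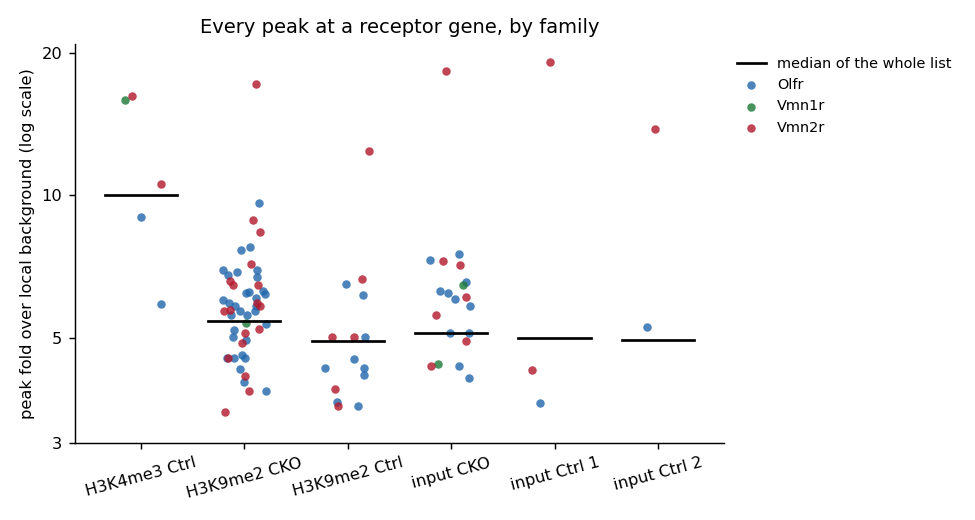
Fold of every peak at a receptor gene in the 6 lists (log scale), coloured by family, with the median of the whole list as a black line. The H3K9me2 points scatter around the list medians of 5.42 in CKO and 4.91 in Ctrl, and the highest point in each list is Vmn2r29.

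Few receptor genes had an H3K9me2 peak in both genotypes. There were 5 with a peak in both lists, 43 in CKO alone and 10 in Ctrl alone. The same split was not counted over all protein-coding genes, and the whole CKO list was 3.48 times as long as the Ctrl list. These counts therefore do not set receptor genes apart from other genes. Vmn2r29 is described above. At Olfr976 the peaks overlapped the start window, at 6.27 in CKO and 6.17 in Ctrl, without an input peak. That window holds the repeated stretch of 37 bases described above. At Olfr828 the folds were 4.53 in CKO and 4.50 in Ctrl, 1204 and 1123 bp downstream. At Olfr571, a class I gene, they were 4.96 in CKO and 3.66 in Ctrl, inside the gene. Vmn2r81 had separate peaks in the 2 lists, of 4.87 in CKO and 3.59 in Ctrl. Of the 51 CKO peaks, 4 overlapped a Ctrl peak (7.84%, 2.18 to 18.9), against 11% of the whole CKO list. Of the 15 Ctrl peaks, 4 overlapped a CKO peak (26.7%, 7.79 to 55.1), against 38.3% of the whole Ctrl list. A gene missing from a list had no peak above the caller's threshold, which does not show that the mark is absent.

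Input peaks were also sparse at receptor genes. In the CKO input 18 genes had one (1.23%, 0.733 to 1.94), where 34.8% of all protein-coding genes did. In the Ctrl inputs 3 genes (0.206%, background 10.1%) and 2 genes (0.137%, background 4.56%) did. Those in Ctrl were Vmn2r29 in both, Olfr183 and Vmn2r44 in the first and Olfr631 in the second, with folds of 3.65, 4.28 and 5.27 for the last 3 genes in that order. The highest CKO input peaks after those already given were at Olfr91 (7.30), Vmn2r63 (7.12), Olfr1423 (6.57), Olfr631 (6.28), Olfr165 (6.22) and Olfr183 (6.03). Per Mb the CKO input had 1.65 peaks in receptor regions (0.996 to 2.58) against 7.26 at other genes (ratio 0.228, 0.137 to 0.356) and 2.32 in intergenic sequence (0.713, 0.429 to 1.12). Per Mb, receptor regions were thus below other genes for the CKO input and for H3K4me3, while the H3K9me2 ratios to other genes had intervals that included 1. In all, 1388 of 1458 receptor genes had no peak in any list, 54 had one in 1 list, 14 in 2, Vmn2r87 in 3 and Vmn2r29 in 6. The number of lists per gene was not counted over all protein-coding genes.

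Across the genome the picture between the receptor genes differed from that on them. This comparison of sequence between genes was not planned and was added after the data were seen. Inside the cluster spans, sequence outside protein-coding genes and their flanks held 7.96 CKO H3K9me2 peaks per Mb, against 5.81 per Mb in such sequence elsewhere (ratio 1.37, 1.22 to 1.53). In Ctrl it held 2.34, against 1.73 (1.35, 1.09 to 1.66). The CKO input was raised alike, at 3.04 against 2.29 (1.32, 1.09 to 1.59). The Ctrl inputs had ratios of 1.28 (0.906 to 1.77) and 1.32 (0.75 to 2.18), and H3K4me3 0.567 (0.384 to 0.808), which was 1.04 with the peaks from the median fold up. The H3K9me2 and input ratios lay within each other's intervals. With peaks that overlap an input peak removed, the H3K9me2 ratios were 1.36 (1.20 to 1.54) in CKO and 1.24 (0.957 to 1.58) in Ctrl. The excess was spread over chromosomes. Of 12 chromosomes with at least 0.5 Mb of such sequence inside clusters, the density inside was above that outside on 11 for CKO H3K9me2, 10 for Ctrl H3K9me2, 10 for the CKO input, and 9 and 6 for the Ctrl inputs, and on 3 for H3K4me3. The exception in CKO H3K9me2 was chromosome 1, with 4.73 inside and 5.95 outside.

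By the leading family of the cluster, sequence between genes held 8.56 CKO H3K9me2 peaks per Mb (7.41 to 9.83) in Olfr clusters, 8.88 (7.03 to 11.1) in Vmn1r clusters and 5.23 (3.77 to 7.07) in Vmn2r clusters. In Ctrl the values were 2.67, 2.58 and 1.12. The Vmn1r clusters thus held H3K9me2 peaks between genes as densely as the Olfr clusters, while 1 of the 231 Vmn1r genes had one in CKO.

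Among single clusters, the one with the most genes lay on chromosome 2, with 222 Olfr genes from Olfr987 to Olfr1274 over 5.08 Mb. Its span held 30 CKO and 8 Ctrl H3K9me2 peaks, and 4 and 1 of its genes had one. The class I cluster of chromosome 7, from Olfr543 to Olfr692, held 126 Olfr genes, 121 of them class I, over 2.90 Mb, with 19 CKO and 13 Ctrl peaks, and 2 and 1 genes with a peak. The Vmn1r cluster of chromosome 7, with 86 genes from Vmn1r91 to Vmn1r183 over 3.96 Mb, had 28 CKO and 6 Ctrl peaks in its span and none at a gene. The chromosome 9 cluster from Olfr160 to Olfr986, with 95 genes, had 23 CKO and 6 Ctrl peaks, and 5 and 1 genes with a peak. The chromosome 17 cluster from Vmn2r90 to Vmn1r237 had 22 CKO and 3 Ctrl peaks with 36 genes, and the chromosome 19 cluster from Olfr1417 to Olfr1505 had 17 and 3 with 63 genes. A span of 1.55 Mb on chromosome 6, from Vmn1r4 to Vmn1r31, held 20 CKO and 3 Ctrl peaks and none at its 28 genes. The chromosome 13 cluster from Olfr1370 to Vmn1r223 held 20 and 10, with 1 of its 48 genes carrying a peak in CKO and none in Ctrl. Among the 19 clusters of 1 Mb or more, CKO H3K9me2 density ran from 2.98 to 12.9 per Mb with a median of 6.66, and Ctrl from 0.496 to 4.58 with a median of 1.59. Of the 45 clusters of 5 or more genes, 41 had a CKO peak in their span, 36 a Ctrl peak and 41 a CKO input peak. The number of CKO H3K9me2 peaks followed the span of these 45 clusters (Spearman rho = 0.875), and so did that of CKO input peaks (0.823), as a description over clusters that share 1 library each.

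**Figure D5:**
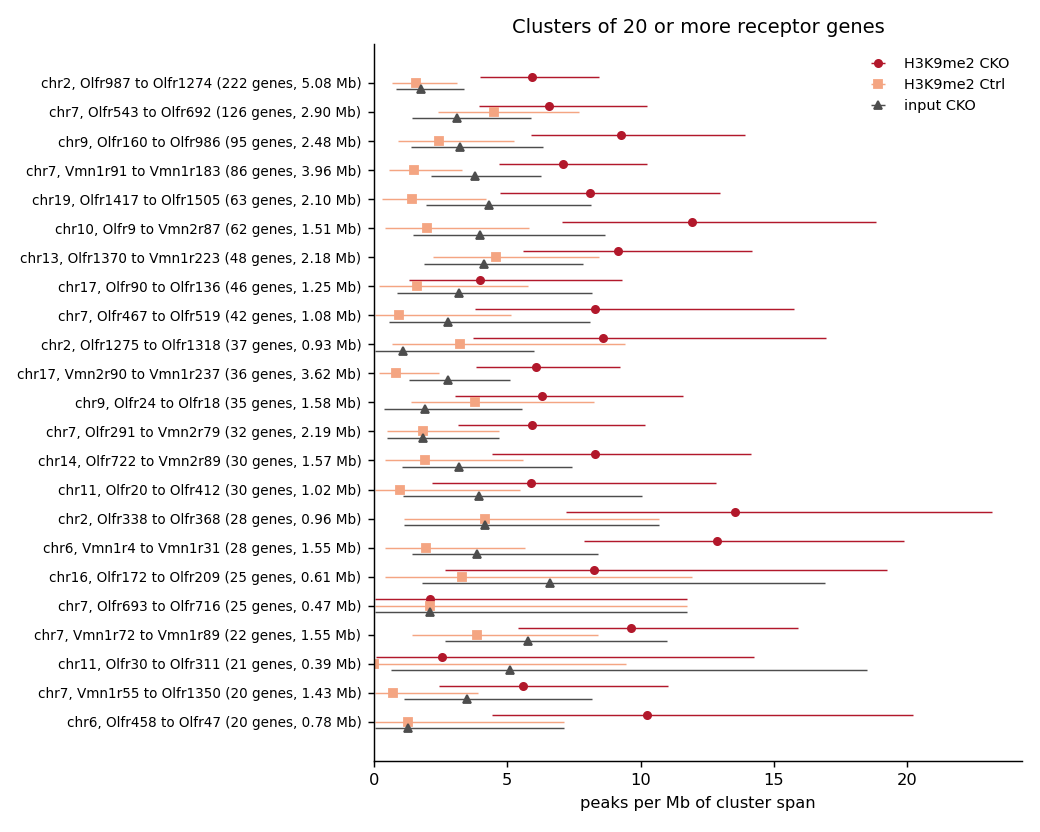
H3K9me2 peaks per Mb of span in CKO (red circles) and Ctrl (orange squares), with CKO input peaks (grey triangles), for each cluster of 20 or more receptor genes, ordered by number of genes, with exact 95% Poisson intervals. The CKO intervals of all 23 clusters overlap one another, and the cluster with the most genes, 222, has 5.91 CKO H3K9me2 peaks per Mb.

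By chromosome, the genes with a CKO H3K9me2 peak numbered 14 of 417 on chromosome 7, 6 of 130 on chromosome 9, 5 of 287 on chromosome 2, 5 of 76 on chromosome 10, 3 each on chromosomes 6, 17 and 19, 2 each on 11 and 16, and 1 each on 1, 4, 8, 13 and 14. In Ctrl there were 4 on chromosome 7, 3 on chromosome 9, 2 each on chromosomes 2 and 6 and 1 each on 5, 10, 14 and 19. Relative to the whole chromosome, receptor regions held fewer CKO peaks per Mb on chromosome 2 (2.45 against 4.30) and about as many on chromosome 7 (4.77 against 4.50), while chromosome 9 was higher at 7.53 against 4.72. These rest on 4, 17 and 6 peaks. The 5 H3K4me3 peaks lay on chromosomes 2, 6, 7, 10 and 17, with 1 on each.

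Other chemoreceptor genes likewise had few peaks, while the genes that sensory neurons use to signal had H3K4me3 about as often as all protein-coding genes. The lists follow known roles and were chosen with earlier results of these data known. Of 60 taste, trace amine and formyl peptide receptor genes, Tas1r1 alone had H3K4me3 (fold 16.2). None had H3K9me2 in CKO or in Ctrl (upper limit 5.96%, with backgrounds of 16.0% and 5.38%). That limit is above the Ctrl background. The 60 genes were not matched for length, and other genes of up to 1500 bp had shares of 6.75% in CKO and 1.91% in Ctrl. Tas1r1 had a peak outside either end of the gene, of 16.2 and 12.2, and the first overlapped a CKO input peak (4.93). Of 20 genes of olfactory and vomeronasal signalling, 13 (65%) had H3K4me3, near the 65.5% of all genes, led by Ric8b, an exchange factor for the olfactory G protein (17.3), the phosphodiesterase gene Pde1c (15.3), Cnga4, a subunit of the olfactory channel (13.5), and the adenylate cyclase gene Adcy3 (13.4). Of the same 20 genes, 4 had H3K9me2 in CKO (Pde1c, Ano2, Gnao1 and Cnga4), where 16.0% of all genes did, and 2 in Ctrl (Pde1c and Ano2), where 5.38% did. The H3K9me2 peak of Cnga4 overlapped its H3K4me3 peak and a CKO input peak. After removal of input peaks, 3 genes remained in CKO (15%, background 9.82%) and 2 in Ctrl (10%, background 3.26%). A CKO input peak was found at 9 of the 20 (45%), against 34.8% of all genes. Many of these genes act in other tissues too. Among 6 markers of olfactory neurons, Gnal, Adcy3 and Cnga4 had an H3K4me3 peak, and Omp, Stoml3 and Rtp1 had none.

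Regulators of receptor choice, many of which are general chromatin factors, had H3K4me3 at 20 of 20 genes, where 65.5% of all genes had it. The highest were Setdb1, an H3K9 methyltransferase gene (19.5), Cbx5, which encodes a heterochromatin protein (14.8), Eif2ak3, a kinase of the unfolded protein response (13.5), and Suv39h2 (12.0). H3K9me2 in CKO was found at 3 of them, Ebf1 (5.83), Lbr (4.53) and Dnmt3a (3.65), a share near the 16.0% of all genes, and in Ctrl at none. A CKO input peak was found at 13 of the 20 (65%), against 34.8% of all genes. The receptors described outside the nose were as bare as the remainder. Olfr16, known from sperm, Olfr78, known from the carotid body and kidney, and Olfr544, known from metabolic tissues, had no peak in any list. The nearest H3K4me3 peak lay 323 kb from Olfr16, 53.2 kb from Olfr78 and 24.6 kb from Olfr544. The nearest H3K9me2 peak lay 224 kb away in CKO and 12.9 kb away in Ctrl for Olfr16, 35.2 and 6.55 kb for Olfr78, and 306 and 245 kb for Olfr544.

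Genes of other kinds that stand inside the receptor clusters did not share the absence of H3K4me3. The share with an H3K4me3 peak was 0.343% for the receptor genes, against 51.9% (45.3 to 58.4), or 124 of 239, for the protein-coding genes of other kinds inside the clusters and 65.5% for all genes. The highest were 2610008E11Rik (25.2), the zinc finger genes Zkscan8 (24.3) and Zfp606 (22), and Trim68 (21.7), which stands in the class I cluster of chromosome 7. H3K9me2 was found at 34 of the 239 in CKO (14.2%) and 12 in Ctrl (5.02%), close to the 16.0% and 5.38% of all genes. A CKO input peak was found at 34 as well (14.2%, 10.1 to 19.3), below the 34.8% of all genes. The highest CKO H3K9me2 peaks among them were at Lancl2 (7.98), Zfp317 (7.77), Zfp606 (7.77) and 2900092C05Rik (7.59). That of Lancl2 overlapped H3K4me3 and CKO input peaks, that of Zfp606 an H3K4me3 peak and that of 2900092C05Rik a peak of Ctrl input 1. After removal of input peaks, H3K9me2 was at 23 of the 239 in CKO (9.62%, background 9.82%) and 11 in Ctrl (4.6%, background 3.26%).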

How the data were processed

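CUT&RUN peak lists of 6 libraries were used, grouped by the genotype labels. The H3K4me3 library, wild type by its title, is Ctrl by its genotype. The submitters' processing notes name Bowtie2, MACS2 and the build mm10. The sources used here do not say how input was prepared, whether peaks were called against it or whether the animals differed between libraries. The authors deposited for each peak a fold (a ratio of summit to local background), −log10 p-values and −log10 q-values, a score (10 times −log10 q as a whole number) and a summit offset, and neither score nor offset was used for a result. The lowest −log10 q of each list is near 1.3, so lists appear to stop at q of 0.05.

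Overlap meant 1 bp. Densities count peak centres from position 3000000 on. Shares have exact binomial (Clopper-Pearson), densities exact Poisson and ratios conditional binomial 95% intervals. Summit fragments and local background were solved from fold and p, matching within 0.1% for 99.0% to 99.95% of peaks. Overlap and fragment code was checked on simulated peaks. Gene positions came from RefSeq (GRCm38.p6), with strand only through the promoter table. Receptor genes, lists and tests were chosen with earlier results of these data known. Named were the genes with H3K4me3, with input (10 highest), with H3K9me2 in both genotypes, the 10 highest per H3K9me2 list, the 5 largest clusters and the 5 with most peaks, 3 receptors known outside the nose and up to 4 genes per list, and other names were chosen after their values were seen. Software was numpy 2.4.6, scipy 1.17.1, pandas 2.3.3 and matplotlib 3.10.9 under Python 3.11.15.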

Additional observations from a re-analysis of the deposited data

How the results depend on the processing

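Of 137 alternative values, 95 stayed close to the value reported (counts within 1.5 times, ratios within the interval), 41 moved and 1 reversed, and the cause was not tested beyond each alternative's own construction. Counts below are of receptor genes with a peak, in the order H3K4me3, H3K9me2 in CKO and Ctrl, input in CKO, and inputs 1 and 2 in Ctrl. The shares of all protein-coding genes were not counted under these alternatives, so the counts cannot be set against a background. With a 5 kb flank the counts were 8, 108, 36, 36, 6 and 4. With no flank, H3K9me2 was at 27 genes in CKO and 9 in Ctrl. At q of 1e-05 or less H3K9me2 was at 22 and 2 genes, input at 8 in CKO and at 1 and 1 in Ctrl. With the upper part of each list by fold (from its median up), H3K4me3 was at 3, H3K9me2 at 30 and 7, and Ctrl input 1 at 1. With lists of equal length (1277 peaks) H3K4me3 was at 1, H3K9me2 at 4 in CKO and 4 in Ctrl, and input at 5 in CKO and 1 in Ctrl input 1. The higher CKO count therefore did not hold at equal list length. Counts of genes with input-free H3K9me2 were 23 and 8 with no flank, 95 and 31 with 5 kb, 16 and 1 at q of 1e-05, and 23 and 6 at the median fold. Without either input_Ctrl replicate they were 41 in CKO and 14 in Ctrl, as reported.

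The ratio of receptor regions to the rest of chromosomes 1 to 19 was 0.0648 for H3K4me3, 0.163 at equal length and 0.324 against intergenic sequence. For the CKO input it was 0.371, with 0.89 at q of 1e-05, 0.819 at equal length and 0.713 against intergenic sequence. For the Ctrl inputs it was 0.653 and 1.39 at q of 1e-05, which rests on few peaks. The ratios for H3K9me2, 0.802 in CKO and 0.872 in Ctrl, stayed within their intervals under the 7 alternatives. For sequence between genes inside clusters, the comparison and its alternatives were chosen after seeing the data. There H3K4me3 reversed to 1.04 with the peaks from the median fold up. It was 0.936 at equal length and 0.301 with clusters cut at 250 kb. Ctrl H3K9me2 was 1.72 and Ctrl input 1 0.643 at q of 1e-05. No paired analysis was possible because H3K9me2 has 1 library per genotype and H3K4me3 has none in CKO. At 6 to 9 fragments per summit, depth limits what the H3K9me2 lists can show.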
